A study of Mus musculus with 4 samples.

Results

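The FGF and ERK genes described here are 9 of the 43629 Ensembl mouse genes counted in each library: the ligand gene Fgf4, the receptor genes Fgfr1 and Fgfr2, the feedback inhibitor genes Spry2, Spry4 and Dusp6, and the target transcription factor genes Etv4, Etv5 and Egr1. They were taken by gene symbol, and the list was chosen with earlier results of these data known. Each symbol matched 1 row, and all 9 passed the filter on low counts that left 17022 genes for testing. The libraries profile the mRNA of 129/Ola mouse embryonic stem cells, all grown in medium with serum and LIF, the cytokine that keeps such cells from differentiating. Drosha encodes the enzyme that makes the first nuclear cut in microRNA processing, and the libraries were made to set cells lacking it against wild-type cells. KO1 is labelled Drosha knockout 1 and had its proline-rich region deleted. KO2 is labelled Drosha knockout 2 and had its arginine- and serine-rich region deleted. Both knockout libraries are labelled passage 7, and their titles carry a mark, d5, which the labels do not explain and the wild-type titles lack. WT1 and WT2 are wild-type cells of the established stem cell line E14, at passage 33 and passage 42, and their labels call both re-used. Each allele is 1 library, so allele and library cannot be told apart, and genotype cannot be told apart from passage, from the d5 mark or from the origin of the wild-type libraries.

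FGF4 is secreted by embryonic stem cells themselves and binds FGF receptors at the cell surface together with heparan sulphate. The receptor tyrosine kinases pass the signal through the adaptor FRS2, the RAS GTPases and the kinases RAF, MEK and ERK. ERK activity switches on early genes such as Egr1 and ETS factors such as Etv4 and Etv5, and it also raises its own inhibitors, the Sprouty proteins and the ERK phosphatase DUSP6. In mouse embryonic stem cells this pathway is known for moving cells out of the naive state and, in the blastocyst, for directing inner cells to primitive endoderm.

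Deposited counts summed to between 29264632 and 42322129 per library, so that 1 count was worth between 0.0225 and 0.0324 CPM (counts normalised to a common library size with TMM factors). Drosha itself, the check of the labels, stood at 158 and 158 CPM in KO1 and KO2, against 364 and 357 CPM in WT1 and WT2. The knockout libraries were much closer to each other than the wild types were, with a median absolute log2 ratio of 0.073 for KO2 over KO1 and 0.448 for WT2 over WT1 over all tested genes. They still differed beyond counting error, with a chi-square per degree of freedom of 2.26. Libraries of 1 genotype differ in their labelled deletion or passage, and no deletion or wild-type passage has a repeat, so p-values measure the spread among these libraries alone. All 10 embryonic stem cell markers were detected in every library and summed to 7190 and 7260 CPM in KO1 and KO2, against 6580 and 8000 CPM in WT1 and WT2. Dppa5a was the highest of them, 1 of the 10 rose (Utf1, 4.31-fold, edgeR adjusted p = 0.0482) and 9 did not pass. Of all tested genes, 3.51% rose. Klf4 was at 151 and 144 CPM in KO1 and KO2, against 151 and 535 CPM in WT1 and WT2. Knockout over wild-type log2 fold changes followed the GC content of transcripts, with a median of 0.86 over the 3812 tested genes with a GC content of at least 55% and of -0.55 over the 4124 genes under 45%. The wild types also differed along GC content, with median log2 ratios of WT2 over WT1 of -0.43 and 0.26 over the same sets of genes. For this reason fold changes are also given with smooth GC and length trends of each library removed.

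Because the deleted gene makes microRNAs, the annotated 3′ untranslated region (UTR) of each gene was searched for the 7-base match to the seed, bases 2 to 8, of microRNAs known from embryonic stem cells or neural cells, or known to target Sprouty genes. The mature sequences are shown because their seeds, in capitals, define the search, and they come from RefSeq on build GRCm38.p6.
mmu-miR-294-3p: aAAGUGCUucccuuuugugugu
mmu-miR-17-5p: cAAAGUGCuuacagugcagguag
mmu-miR-21a-5p: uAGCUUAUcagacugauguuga
mmu-let-7a-5p: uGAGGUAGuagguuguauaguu
mmu-miR-9-5p: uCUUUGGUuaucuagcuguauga
In the transcript, written in DNA letters, the match searched was AGCACTT for miR-294 and GCACTTT for miR-17. It was ATAAGCT for miR-21a, CTACCTC for let-7a and ACCAAAG for miR-9. The first pair can overlap, since the seeds of miR-294 and miR-17 are shifted by 1 base.

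Matches were found in Fgf4, Spry2 and Spry4, while the 3′ UTRs of Fgfr1, Fgfr2, Dusp6, Etv4, Etv5 and Egr1 held none of the 5. Fgf4 had a miR-294 match and a miR-17 match that overlap near the start of its 2302-base 3′ UTR, at position 52 and position 53, and a let-7 match at position 933. Spry2 had a miR-21a match at position 298 of its 856-base 3′ UTR. Spry4 had 1 miR-17 match in 3559 bases. The sites of Fgf4 and Spry2 are shown as 30 bases of the transcript sequence with the match in capitals, on build GRCm38 (mm10).
Fgf4 and miR-294, chr7:144862981-144863010, plus strand: cccctcaggaggAGCACTTtctctcgatgg
Fgf4 and let-7a, chr7:144863862-144863891, plus strand: ttctatccccatCTACCTCagagttcctga
Spry2 and miR-21a, chr14:105892488-105892517, minus strand: gacccacattgcATAAGCTaaagcagccaa
Of 14095 tested genes with a 3′ UTR, 16.9% held the miR-294 match, 14% the miR-17 match, 7.51% the miR-21a match and 10.5% the let-7 match. Among 3′ UTRs within 1.2-fold of their length, 26.8% held a miR-294 match for the length of Fgf4 and 3.63% a miR-21a match for the length of Spry2. A match is a string of letters and not a tested target site.

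Fgf4 (ENSMUSG00000050917, chromosome 7, 144847367 to 144865243, plus strand) did not differ detectably between knockout and wild-type cells. It had 204 and 205 CPM in KO1 and KO2, against 223 and 179 CPM in WT1 and WT2. Both knockout libraries lay between the wild types, and Fgf4 was the one gene of the 9 whose groups overlapped. Knockout over wild type, the log2 fold change was 0.028 ± 0.16 (SE), with an edgeR quasi-likelihood adjusted p of 0.907. Once the trends in GC content and length were taken out it was -0.035 ± 0.15. The ligand gene that holds the miR-294, miR-17 and let-7 matches shown above was thus at 205 ± 0.671 CPM in knockout cells and 201 ± 31.7 CPM in wild-type cells (SD, n = 2 each).

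Both receptor genes had higher CPM in the knockouts, and Fgfr2 rose past the threshold. Fgfr2 (ENSMUSG00000030849, chromosome 7, minus strand), known as the receptor of the primitive endoderm lineage, had 27.97 and 26.3 CPM in KO1 and KO2, against 11.5 and 8.72 CPM in WT1 and WT2. The lowest knockout library lay above the highest wild type. Fgfr2 averaged 27.1 ± 1.18 CPM in knockout cells and 10.1 ± 1.98 CPM in wild-type cells (SD, n = 2 each), a 2.68-fold rise. Its log2 fold change was 1.42 ± 0.20 (edgeR quasi-likelihood test, Benjamini-Hochberg adjusted p = 0.0482). The value was as large after removal of the GC and length trends (1.49 ± 0.15). Its edgeR adjusted p was then 0.092, in a fit that called 0 of all tested genes. The annotated span of Fgfr2, 130162451 to 133123350, includes a transcript that reaches into Ctbp2 on the same strand, with which Fgfr2 shares 314 exon bases or 3.04% of its exon length.

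Fgfr1 (ENSMUSG00000031565, chromosome 8, 25513654 to 25575718, plus strand), the main FGF receptor of naive embryonic stem cells, had 99.8 and 97.8 CPM in KO1 and KO2, against 68.9 and 42.3 CPM in WT1 and WT2. The groups did not overlap, but the wild types differed from each other by 0.70 on the log2 scale. Fgfr1, at 0.83 ± 0.27 on the log2 scale, did not pass (edgeR adjusted p = 0.108). After removal of the trends it stood at 0.33 ± 0.12 (adjusted p = 0.204). Measured against WT1 alone it was 0.53, and against WT2 alone 1.22.

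Markers of primitive endoderm, the lineage Fgfr2 is known for, went the other way from the receptor gene. The 10 markers summed to 70.5 and 69.4 CPM in KO1 and KO2, against 247 and 430 CPM in WT1 and WT2. In all, 9 of 9 tested markers were lower in both knockout libraries than in both wild types, where 34.8% of all tested genes were. For Gata4 the margin was slight, at 4.83 CPM in KO1 and 4.86 CPM in WT1. Of the 9, 3 fell past the threshold (Lama1, Col4a1 and Cubn) and 6 did not pass, where 1.94% of all tested genes fell. With the GC and length trends removed, 0 genes passed over all tested genes. Foxa2 was too low to test, at 0.065 and 0.113 CPM in KO1 and KO2, against 0.150 and 0.667 CPM in WT1 and WT2. The 10 fibroblast and feeder cell markers, cells in which Fgfr1 is also expressed, summed to 53.0 and 49.5 CPM in KO1 and KO2, against 39.9 and 29.3 CPM in WT1 and WT2. Most of this was Thy1, and without it the sums were 12.2 and 7.93 CPM in KO1 and KO2, against 8.37 and 3.39 CPM in WT1 and WT2. Of 8 tested, 5 lay above both wild types, 1 lay below and 2 overlapped, where 36.5% of all tested genes lay above and 34.8% below. Of these 8 markers 0 passed the threshold, where 5.45% of all tested genes passed. Dcn, Lum and Postn had no count in either wild-type library and at most 1.65 CPM in a knockout. The part of either cell type in the receptor values was not tested, and in bulk RNA fewer cells of a type and less RNA per cell cannot be told apart.

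**Figure D1:**
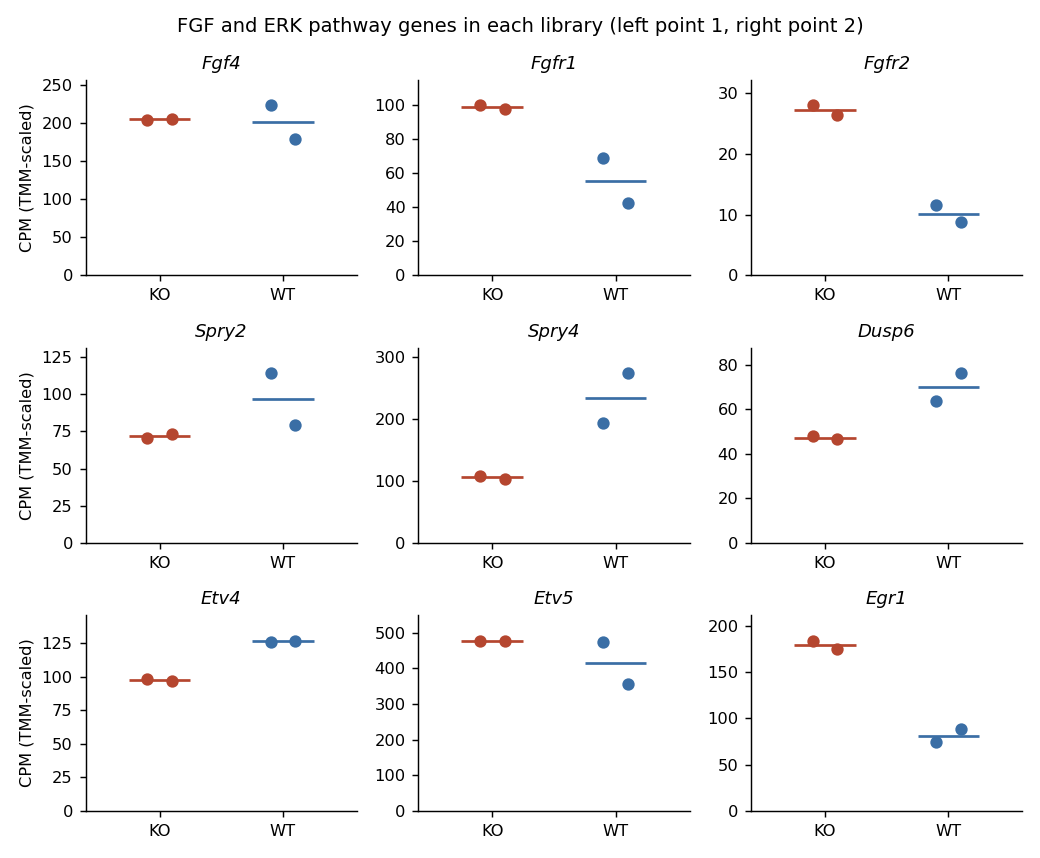
TMM-scaled CPM of the 9 genes, 1 panel per gene, with the 2 Drosha knockout libraries on the left and the 2 wild-type libraries on the right of each panel (points, replicate 1 then 2) and the group mean as a line. The knockout points of Fgfr2 and Egr1 sit well above both wild types, those of Spry4 well below, and those of Fgf4 between them.

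The inhibitor genes Spry4, Dusp6 and Spry2 all had lower CPM in both knockout libraries than in both wild types, and none of them passed the threshold. Of all tested genes, 34.8% lay below in this way. Among 13 other inhibitors of the pathway, 7 lay above both wild types, 5 lay below and 1 overlapped, where 36.5% of all tested genes lay above. The median log2 fold change of these 13 inhibitors was 0.27. Spry4 (ENSMUSG00000024427, chromosome 18, 38586247 to 38601415, minus strand), a Sprouty inhibitor of receptor tyrosine kinase signalling, had 109 and 104 CPM in KO1 and KO2, against 193 and 274 CPM in WT1 and WT2. Both knockout libraries lay far below WT1, the lower of the wild types, and the fitted ratio of knockout to wild type was 0.455. On the log2 scale this was -1.14 ± 0.21, with an edgeR adjusted p of 0.0543, just outside the threshold. Removing the trends gave -1.23 ± 0.21. DESeq2 called it, with an adjusted p of 0.000491.

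Dusp6 (ENSMUSG00000019960, chromosome 10, 99263231 to 99267489, plus strand), the cytoplasmic phosphatase that removes phosphate from ERK, had 47.9 and 46.8 CPM in KO1 and KO2, against 63.9 and 76.2 CPM in WT1 and WT2. Its mean was 47.3 ± 0.797 CPM in knockout cells and 70.1 ± 8.70 CPM in wild-type cells (SD, n = 2 each). With -0.57 ± 0.15 on the log2 scale Dusp6 did not pass (edgeR adjusted p = 0.0777), and removing the trends gave -0.45 ± 0.10. Spry2 (ENSMUSG00000022114, chromosome 14, 105891947 to 105896819, minus strand), whose site for miR-21a is shown above, had 70.4 and 73.2 CPM in KO1 and KO2, against 114 and 79.2 CPM in WT1 and WT2. WT2 lay close to the knockout libraries. Spry2, at -0.43 ± 0.21 on the log2 scale, did not pass (edgeR adjusted p = 0.216). It was at -0.66 over WT1 alone, at -0.14 over WT2 alone and at -0.17 ± 0.28 with the trends removed.

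The target transcription factor genes went different ways. Egr1 (ENSMUSG00000038418, chromosome 18, 34859823 to 34864984, plus strand), a zinc finger factor induced within minutes of ERK activation, rose. It had 184 and 175 CPM in KO1 and KO2, against 74.6 and 88.3 CPM in WT1 and WT2, groups that lie far apart. The mean was 180 ± 5.90 CPM in knockout cells and 81.4 ± 9.70 CPM in wild-type cells (SD, n = 2 each), a 2.21-fold rise. Its log2 fold change was 1.14 ± 0.14 (edgeR quasi-likelihood test, adjusted p = 0.0482). Removing the trends left 0.27 ± 0.24 (adjusted p = 0.524), so its size and its call depend on that setting, which takes out GC and length together. The longest Egr1 transcript has a GC content of 57.3%, against a median of 49.9% over the tested genes.

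Etv4 (ENSMUSG00000017724, chromosome 11, 101769742 to 101785371, minus strand), an ETS factor of the PEA3 group, had 98.1 and 96.9 CPM in KO1 and KO2, against 126 and 127 CPM in WT1 and WT2. Here the wild types were as close to each other as the knockouts were. Etv4, at -0.37 ± 0.11 on the log2 scale, did not pass (edgeR adjusted p = 0.095). Removing the trends gave -1.43 ± 0.18 (adjusted p = 0.092). Etv4 has the highest GC content of the 9 genes, 58.7%, and the part of GC content alone in this move was not tested. Etv5 (ENSMUSG00000013089, chromosome 16, 22381309 to 22439719, minus strand), of the same PEA3 group, had 477 and 477 CPM in KO1 and KO2, against 475 and 357 CPM in WT1 and WT2. WT1 reached almost the level of the knockouts. Etv5 was at 0.20 ± 0.18 on the log2 scale (edgeR adjusted p = 0.456), with 0.01 over WT1 alone and 0.42 over WT2 alone.

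**Figure D2:**
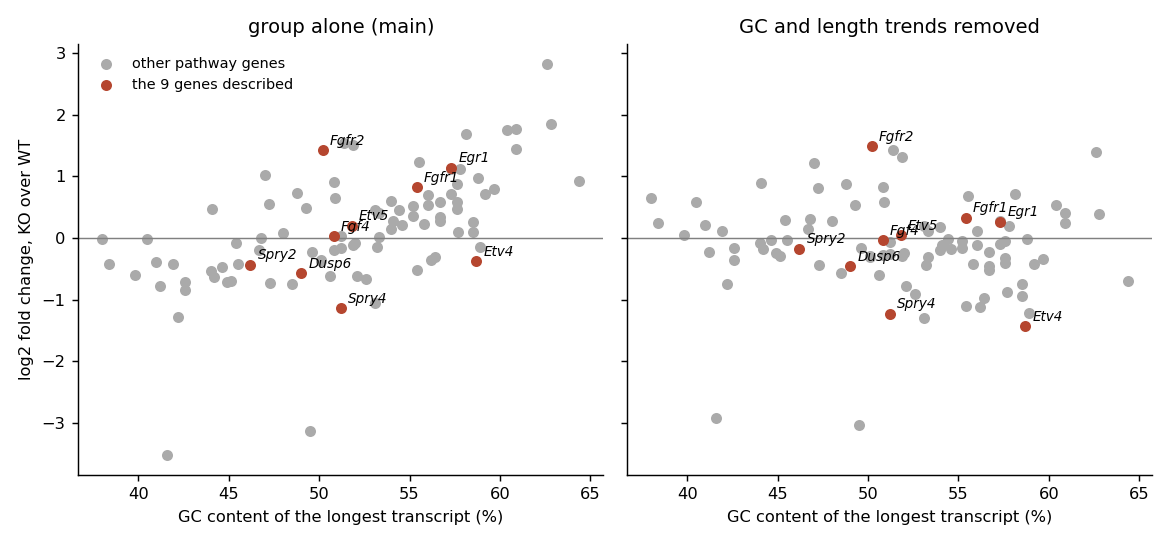
Log2 fold change of knockout over wild type (vertical) against the GC content of each gene's longest transcript in percent (horizontal) for the 9 genes and the other tested pathway genes, as fitted with group alone (left) and with GC and length trends removed (right). Fgfr2 stays near 1.4 and Spry4 near -1.2 in both panels, while Egr1 lies at 1.14 on the left and 0.27 on the right and Etv4 at -0.37 and -1.43.

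Counted together, 2 of the 9 genes rose (Fgfr2 and Egr1), 0 fell and 7 did not pass, with an unadjusted edgeR p under 0.05 for 6. Over all 17022 tested genes 5.45% passed, 3.51% higher and 1.94% lower in the knockouts, and 37.1% had an unadjusted p under 0.05. Both knockout libraries lay above both wild types for 4 genes and below them for 4, where 36.5% of all tested genes lay above and 34.8% below, 71.2% in all. The median log2 fold change of the 9 genes was 0.028, beside -0.016 over all tested genes. Of the tested genes, 3.55% had a smaller p than Fgfr2, 1.84% a smaller p than Egr1 and 8.59% a smaller p than Spry4. The smallest adjusted p in the whole comparison was 0.0482, so the calls of Fgfr2 and Egr1 stand at the edge of the threshold. Both calls were lost without KO1 and without KO2, with adjusted p-values between 0.270 and 0.378, and the fold changes then were 1.39 and 1.47 for Fgfr2 and 1.12 and 1.18 for Egr1. They were also lost with upper-quartile scaling, with library totals alone and with the knockout libraries summed as 1 sample.

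**Figure D3:**
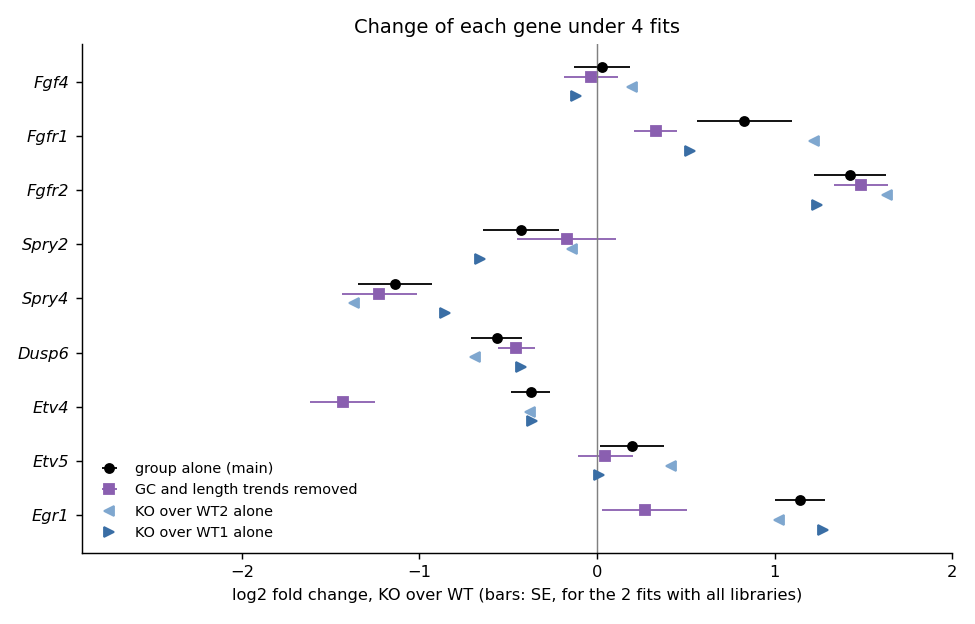
Log2 fold change of knockout over wild type for each gene (rows) in the fit of group alone, with GC and length trends removed, and over each wild-type library alone. Bars are SE for the 2 fits with all libraries. Fgfr2 lies between 1.24 and 1.63 and Spry4 between -1.37 and -0.86 in all 4, and Fgf4 changes sign.

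Expressed per kilobase of annotated exon (RPKM), so that levels of different genes can be set side by side, Etv5 was the highest and Fgfr2 the lowest of the 9 genes in both genotypes. Etv5 averaged 116 ± 0.159 RPKM in knockout cells and 101 ± 20.4 RPKM in wild-type cells, and Fgf4 averaged 64.1 ± 0.210 RPKM in knockout cells and 62.9 ± 9.94 RPKM in wild-type cells (SD, n = 2 each). Egr1 was in position 3 of the knockout order, at 40.0 ± 1.32 RPKM, and in position 7 of the wild-type order, at 18.2 ± 2.16 RPKM. Spry4 was in position 6 of the knockout order, at 22.3 ± 0.763 RPKM, and in position 3 of the wild-type order, at 49.1 ± 12.1 RPKM. Fgfr1 had 10.1 and 9.90 RPKM in KO1 and KO2, against 6.98 and 4.29 RPKM in WT1 and WT2, above Fgfr2 at 2.63 ± 0.114 RPKM in knockout cells and 0.980 ± 0.192 RPKM in wild-type cells. Neighbours in the knockout order did not overlap. In the wild-type order Fgf4 overlapped Spry4, Spry4 overlapped Spry2 and Spry2 overlapped Etv4, while Fgf4 lay above Spry2 and Etv4 in both libraries.

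**Figure D4:**
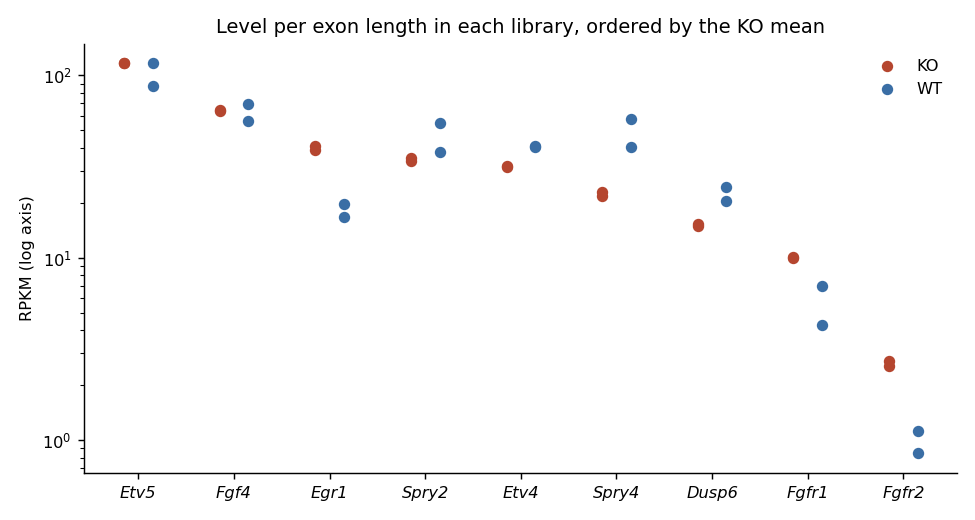
Level per exon length (RPKM, log axis) of the 9 genes in the knockout libraries (left points of each pair) and wild-type libraries (right points), ordered by the knockout mean. Etv5 is highest and Fgfr2 lowest in both, and Egr1 lies above Spry4 in the knockout libraries and below it in the wild types.

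The other genes of the pathway were read from a list of 89 genes grouped by role, of which 86 were tested. In this list 7 genes rose, 0 fell and 79 did not pass, and the median log2 fold change was 0.10. Over all tested genes 5.45% passed, 3.51% higher and 1.94% lower in the knockouts. Early and delayed ERK targets held 3 of the rises among 14 tested genes, to be read beside that share of 3.51%. Ier2, an immediate early gene, had 95.7 and 89.9 CPM in KO1 and KO2, against 25.1 and 29.0 CPM in WT1 and WT2. Its log2 fold change was 1.78 ± 0.14 (edgeR adjusted p = 0.0482), and it stood at 0.40 ± 0.27 once the trends were removed. Fos, the immediate early partner of JUN in AP-1, had 30.01 and 29.1 CPM in KO1 and KO2, against 11.9 and 8.97 CPM in WT1 and WT2. Fos rose, with a log2 fold change of 1.504 ± 0.20 at an edgeR adjusted p of 0.0482, and stood at 1.32 ± 0.18 with the trends removed (adjusted p = 0.092). Junb, another AP-1 gene, had 22.3 and 17.8 CPM in the knockouts, against 3.78 and 1.83 CPM in the wild types, which is 2.83 ± 0.42 on the log2 scale (edgeR adjusted p = 0.0482) and 1.401 ± 0.24 with the trends removed. The other 11 tested targets did not pass, Myc among them at 0.02 ± 0.20.

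Among 13 genes of the RAS, RAF, MEK and ERK core, 3 rose, 0 fell and 10 did not pass. Of all tested genes, 3.51% rose and 1.94% fell. Map2k2, which encodes MEK2, had 82.1 and 77.0 CPM in KO1 and KO2, against 26.8 and 20.6 CPM in WT1 and WT2, a log2 fold change of 1.75 ± 0.18. Mapk3, which encodes ERK1, had 149 and 148 CPM in the knockouts, against 78.0 and 83.7 CPM in the wild types, a log2 fold change of 0.88 ± 0.12. Ksr1, a scaffold of the cascade, was at 1.12 ± 0.17, and all 3 had an edgeR adjusted p of 0.0482. Once the trends were removed they were at 0.54 ± 0.13 (Map2k2), -0.05 ± 0.18 (Mapk3, which changed sign) and 0.27 ± 0.28 (Ksr1). Map2k1, the MEK1 paralogue of Map2k2, was at -0.16 ± 0.24 and did not pass (edgeR adjusted p = 0.646).

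Of the other FGF ligand genes, Fgf17 rose among 9 tested, with 15.6 and 16.1 CPM in KO1 and KO2, against 5.36 and 4.39 CPM in WT1 and WT2. This FGF8-family ligand was at 1.70 ± 0.20 on the log2 scale (edgeR adjusted p = 0.0482), and at 0.71 ± 0.15 with the trends removed. Fgf2 and Fgf9 were too low to test, at no more than 0.0752 CPM in any library. In the remaining roles 0 genes passed in either direction, where 3.51% of all tested genes rose and 1.94% fell. The gene with the smallest p was Fgfrl1, a receptor without a kinase domain, among 9 tested receptors and co-receptors (1.11 ± 0.21, edgeR adjusted p = 0.0543, and 0.19 ± 0.22 with the trends removed). It was Glce, an epimerase of heparan sulphate, among 9 genes of its synthesis (-0.53 ± 0.13, adjusted p = 0.0748, and -0.086 ± 0.091 with the trends removed). Among 9 adaptor genes it was Frs2, the docking protein of FGF receptors, with 43.4 and 44.3 CPM in KO1 and KO2, against 68.1 and 74.5 CPM in WT1 and WT2 (-0.70 ± 0.13, edgeR adjusted p = 0.0536, and -0.29 ± 0.094 with the trends removed). It was the RAS-GTPase activating gene Nf1 among 13 other inhibitors (-0.71 ± 0.12, adjusted p = 0.0502, and -0.24 ± 0.096 with the trends removed). Among 10 other ETS and SRF factor genes it was Ets2 (-0.67 ± 0.13, adjusted p = 0.0565, and -0.90 ± 0.13 with the trends removed). Unadjusted edgeR p-values were under 0.05 for 3 of 9 receptor, 3 of 9 heparan sulphate and 4 of 9 adaptor genes. They were under 0.05 for 5 of 13 inhibitor and 3 of 10 factor genes. In the roles with called genes they were under 0.05 for 8 of 13 core genes, 7 of 14 targets and 4 of 9 ligand genes. Over all tested genes the share was 37.1%.

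**Figure D5:**
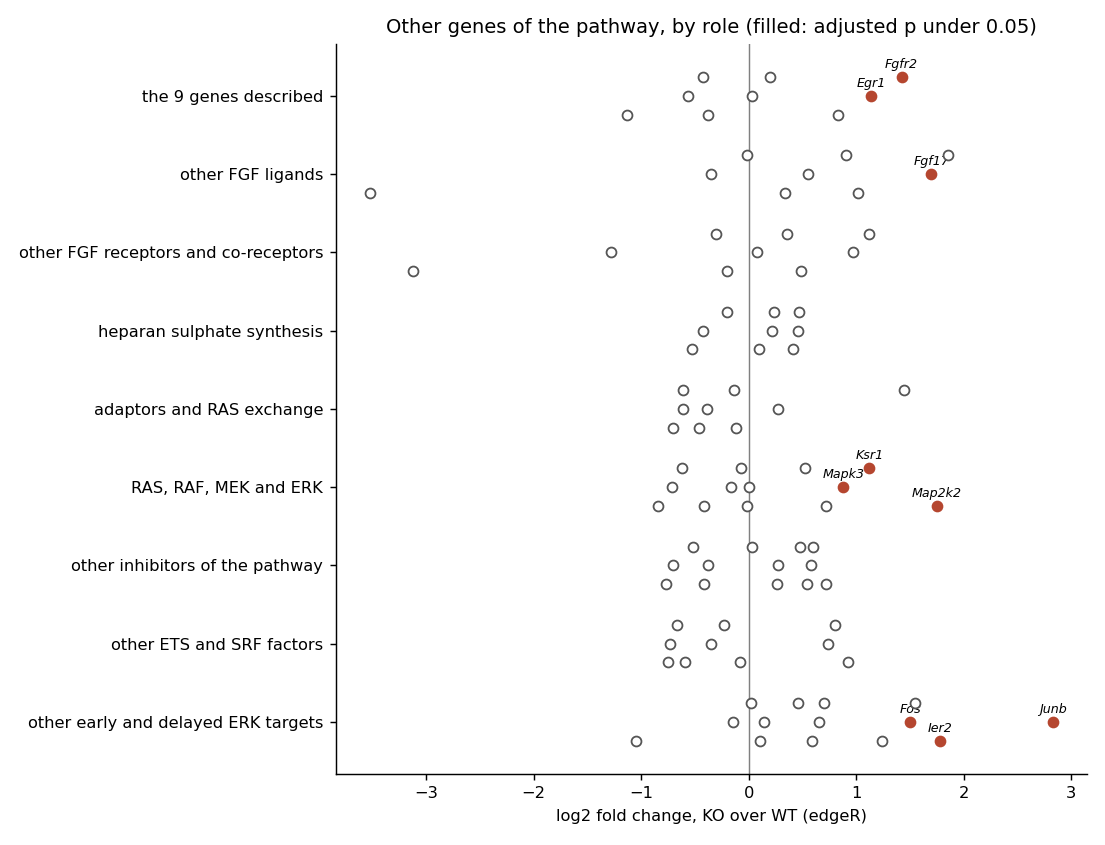
Log2 fold change of knockout over wild type for the 9 genes and for 86 other tested pathway genes, 1 row per role, with genes past an adjusted p of 0.05 filled and named. The filled points all lie to the right of 0, from Mapk3 at 0.88 to Junb at 2.83, and most of the open points lie between -1 and 1.

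The genes with the pattern nearest to Fgf4 over the 4 libraries, among 9914 with a mean log2 CPM of at least 3, were Zeb1, Xrcc6 and D17Wsu92e, at Euclidean distances of 0.00494, 0.0242 and 0.0316 between centred log2 CPM profiles. Zeb1 had 19.2 and 19.3 CPM in KO1 and KO2, against 20.99 and 16.8 CPM in WT1 and WT2. The genes nearest to Dusp6 were Tmem87a, Exo5 and Ddi2, at 0.00939, 0.0147 and 0.0204. Tmem87a had 54.7 and 53.6 CPM in KO1 and KO2, against 73.6 and 87.7 CPM in WT1 and WT2. With so many genes and 4 libraries, close profiles are easily found.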

How the data were processed

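Each deposited table held 1 library as whole-number read counts by Ensembl identifier, which the authors had not normalised. The submitters' processing notes name STAR 2.4.2a, featureCounts 1.4.5-p1 and build mm10, and the labels call the protocol reverse-stranded. Annotation release and counting options are not given in the sources used here, so reads shared by overlapping genes are uncertain. Groups came from the titles. Symbols matched 42462 identifiers (97.3%). Coordinates, exon lengths, GC content of the longest transcript and 3′ UTRs (the longest per gene) came from GENCODE M21 on GRCm38.

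The count test was that of edgeR 4.0.16 under R 4.3.3 (TMM scaling, minimum count 10 and minimum total 15 in the expression filter, quasi-likelihood fit of group alone, Benjamini-Hochberg adjustment over 17022 genes, threshold 0.05). The SE is the log2 fold change divided by the square root of F. DESeq2 1.42.0 was an alternative. GC and length trends were lowess curves (span 0.3) of each library against the mean of the libraries, entered as offsets, for the 16903 tested genes with a GC value. Library totals allow 3 counts, or 0.0676 to 0.0972 CPM, for a gene without a count. Such limits and intervals cover counting error only. The test was also run on simulated data, drawn with the same spread in both groups and without a GC trend. These libraries depart from both settings, so the simulation does not check the test under their conditions. Sequences came from RefSeq, which held 5 of 6 microRNAs asked for. Plots used Python 3.11.15 with matplotlib 3.10.9.

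The genes and lists were chosen with earlier results of these data known. The rule for named genes took the 9 genes, up to 2 called genes per role and direction or else the smallest p, and the nearest profiles. Ksr1, Junb, Myc, Map2k1, Utf1, Klf4, Fgf2, Fgf9, Fgf10, Klb, Flrt3, Gab1, Braf, Etv1, Elk4 and Gata4 were named after their values were seen. Spry3 was not analysed here.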

Additional observations from a re-analysis of the deposited data

How the results depend on the processing

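Over all genes, edgeR called 927. Upper-quartile scaling, library totals alone, the knockout libraries summed as 1 sample, GC and length trends removed, and these trends removed with the replicate block each gave 0 calls, with 6267, 6116, 1888, 4300 and 3227 genes at an unadjusted p under 0.05. In those 5 fits 0 of the 9 FGF and ERK genes (3 to 6 at an unadjusted p under 0.05) and 0 listed pathway genes (10 to 37) were called. DESeq2 called 3851 genes (2073 higher and 1778 lower), 4 of the 9 (Fgfr1, Fgfr2 and Egr1 higher, Spry4 lower) and 22 pathway genes. Without the filter 2663 genes, 3 of the 9 and 15 pathway genes were called, and with RLE size factors 1017, 2 and 9. Leaving out 1 library gave 0 to 13658 calls over all genes, 0 to 9 of the 9 genes and 0 to 70 pathway genes. The low ends come from leaving out KO1 (0 calls, 1760 genes at an unadjusted p under 0.05) or KO2 (22 calls), the high ends from leaving out WT1 (13658) or WT2 (12089), when only the knockout pair gives a spread. The replicate numbers do not state a shared culture. Deviations of same-numbered libraries from the group means correlated at 0.0518, which with 2 libraries per group cannot show whether they shared handling. With the replicate block the fit called 1929 genes, 1353 of them higher, with 3 of the 9 genes (Spry4 joining at an adjusted p of 0.0323) and 10 pathway genes.

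The sign of 8 of the 9 genes held in all 13 alternatives. Fgf4 ran from -0.1176 without WT2 to 0.1987 without WT1, and turned to -0.0346 with trends removed and to -0.0234 with trends removed and the replicate block. Fgfr2 ranged from 1.24 to 1.63, Spry4 from -1.37 to -0.86 and Egr1 from 0.27 to 1.29. Among alternatives that kept every library, Fgfr2 and Egr1 were called with RLE size factors, without the filter, with DESeq2 and with the replicate block. Spry4 was called without the filter, with DESeq2 and with the replicate block. Calls without WT1 or without WT2 rest on the spread of the knockout pair alone and are left out here. Library totals alone moved the median of all genes to 0.13, and with that shift not taken off Fgfr2 stood at 1.56 and Spry4 at -0.98. The cause of these differences was not tested.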

Other observations

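Several listed genes with lower CPM in both knockouts also differed between the wild types, in either direction. Gab1, Braf and Etv1 were higher in WT1, at 460, 156 and 26.2 CPM there and 294, 100 and 15.4 CPM in WT2. Elk4 was higher in WT2, at 37.3 CPM against 21.6 CPM in WT1. Fgf10, Klb and Flrt3 are described here, chosen after their values were seen. Fgf10, a ligand of FGFR2, had 0.583 and 0.361 CPM in KO1 and KO2, against 2.18 and 8.61 CPM in WT1 and WT2, and did not pass, at -3.52 ± 0.83 on the log2 scale (edgeR adjusted p = 0.0696). Klb, which encodes the co-receptor beta-Klotho, had 0.648 and 0.564 CPM in KO1 and KO2, against 2.23 and 8.36 CPM in WT1 and WT2 (-3.12 ± 0.76, edgeR adjusted p = 0.0719). Flrt3, a transmembrane protein known to bind FGF receptors, had 4.34 and 4.15 CPM in KO1 and KO2, against 6.49 and 14.1 CPM in WT1 and WT2 (-1.28 ± 0.43, edgeR adjusted p = 0.117). Fgf10, Klb and Flrt3 were higher in WT2 than in WT1, as was the sum of the primitive endoderm markers, at 430 CPM in WT2 and 247 CPM in WT1. The part of such cells in these values was not tested.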
